A study of Sus scrofa with 9 samples.

Results

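The coagulation and complement proteins of blood plasma are made largely in the liver, and their genes were followed here in the livers of Wujin pigs that received different amounts of dietary iron. The genes were taken by name, whatever their expression: 37 symbols of clotting factors, protease inhibitors, fibrinolysis proteins and complement proteins were looked up in a table of 25918 genes. Of these symbols, 36 were found, and they stand on 37 genes because C4BPA is the symbol of 2 genes. PROZ, the gene of protein Z, was not found by its symbol and is not analysed here. There were 19 genes of coagulation and fibrinolysis and 18 of complement, with SERPING1 counted among the latter. All 37 were above 0 in each of the 9 libraries and reached a mean of 0.5 FPKM, the level required for testing, as did 12584 genes in all. FPKM is the number of fragments per kilobase of transcript, scaled to the mapped fragments of the library, so it allows levels of different genes to be compared per length.

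The study asked how dietary iron shapes the liver transcriptome, and 3 livers from each of 3 groups were sequenced. The pigs were 35 days old at the start, were adapted for 5 days, were then fed for 30 days, and were kept in single pens. The basic diet was given with 0 mg/kg of added iron (low-iron), with 100 mg/kg (control) or with 200 mg/kg (high-iron), the additions being iron glycinate. By the paper's calculation the basic diet itself contained iron, so the low-iron diet was not free of iron. The 3 livers of a group were a random draw from a larger group. Both sexes were present among all pigs of the study, and the sex of each of the 9 pigs is not given in the sources used here. Libraries are named by group and animal number. Each library came from a different pig, so the spread between libraries holds that between animals and that of library preparation and sequencing, which cannot be told apart. FPKM summed to between 416922 and 456420 per library, with 16235 to 17817 genes above 0. The study lists read totals per library, which are not repeated here; the table holds no counts, so the reads behind a single value are unknown and its error is the spread between the livers of a group.

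In the clotting cascade, inactive serine proteases activate each other in turn on membrane surfaces until thrombin cuts fibrinogen to fibrin; several of these enzymes must first be modified in a reaction that needs vitamin K. Protease inhibitors of the serpin family and the protein C pathway restrain the cascade, and plasmin dissolves the clot. Complement works on the same principle: lectins or antibodies on a microbe activate proteases that cut C3 and C5, and the terminal components then assemble into a pore. Hepatocytes are the main source of most of these proteins, while factor VIII comes largely from endothelial cells and C1q from macrophages.

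Over the 9 libraries, 5 of the 37 genes had a mean of 1000 FPKM or more, 20 lay between 200 and 1000, 3 between 100 and 200, and 9 below 100. Together they made up between 3.38% and 4.77% of all FPKM of a library. The share was 4.09 ± 0.697% in the low-iron group, 4.11 ± 0.186% in the control group and 4.20 ± 0.390% in the high-iron group (mean ± SD, n = 3 each). The low-iron libraries held both the lowest share, in low-iron 7, and the highest, in low-iron 3, so the groups overlapped fully. Low-iron 7 was also the lowest library for 13 of the 37 genes, while low-iron 3 was the highest for 10 and low-iron 2 and high-iron 2 for 9 each. In low-iron 7 the median deviation of the members from their own mean was -0.14 on the log2 scale. This was larger for the complement genes, at -0.29, than for the coagulation genes, at -0.07.

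**Figure D1:**
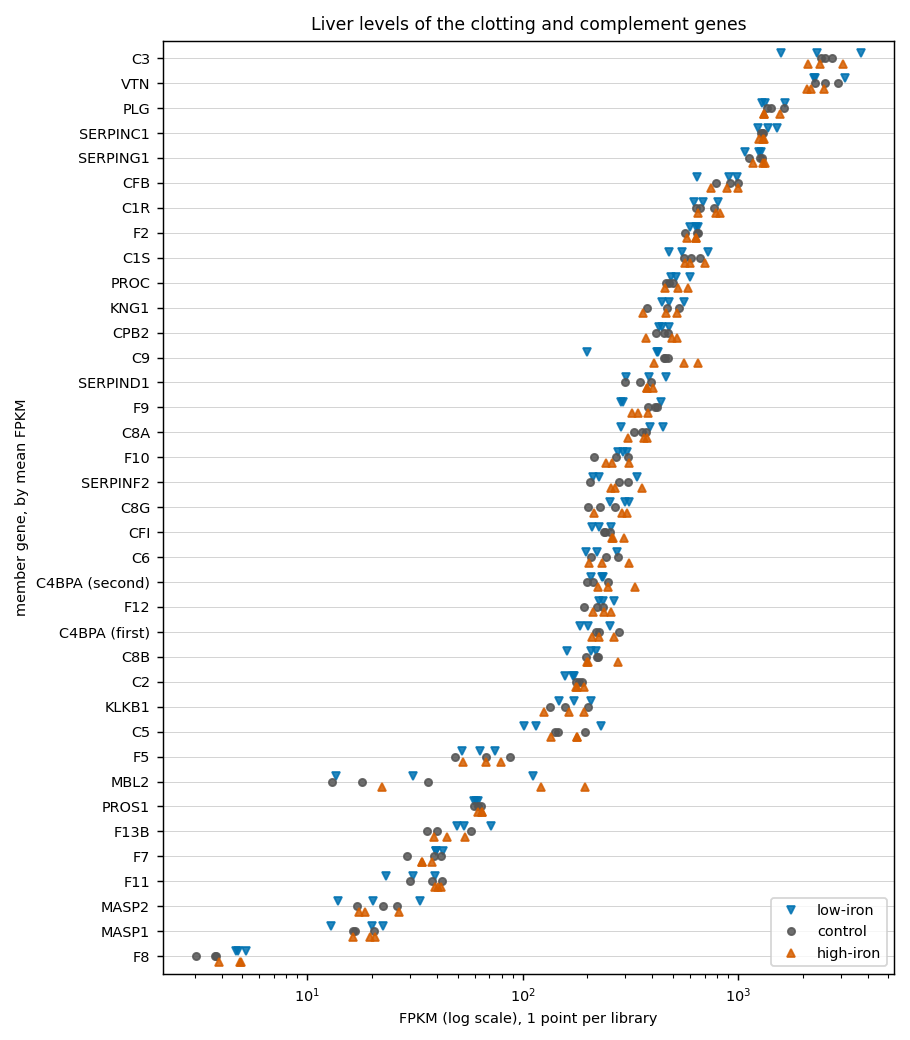
FPKM of each gene in each of the 9 libraries on a log axis, with genes ordered by their mean over all libraries; triangles pointing down are low-iron, circles control and triangles pointing up high-iron. Levels run from 3.05 FPKM (F8, control 4) to 3734 FPKM (C3, low-iron 3), and the highest library of MBL2 is 14.9 times its lowest, against at most 3.27 times for every other gene (C9).

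Short motifs of liver transcription factors were looked for in the promoters as a feature not used to choose the genes. In the 250 bases before the annotated gene start in Sscrofa11.1, the half-site GTTAAT of the factor HNF1, read on both strands, stood in 6 of the 37 (16.2%), against 6.24% of all 20650 promoters of that length and 4.60% of the 11688 promoters of tested genes. The letters AAAGTCC, a half-site of HNF4, were present in 4 (10.8%, against 2.90% and 3.10%). TTGCNNAA, a C/EBP site, was present in 7 (18.9%, against 8.38% and 7.93%), and TGTTTAC, a FOXA site, in 3 (8.11%, against 2.31% and 2.20%). At least 1 of these motifs stood in 16 promoters (43.2%, against 18.0% and 16.1%), and where a promoter held more than 1, the matches did not overlap. These are matches of letters and not shown to be bound. The HNF1 half-sites of PLG, F2, C8A and F11 are shown because they lie close to the start in a fibrinolysis, a clotting, a terminal complement and a contact factor gene. The 70 bases before the start are printed 5′ to 3′ on the strand of the gene from the RefSeq genome, with the half-site in capitals (ATTAAC is GTTAAT on the other strand). They lie at chr1:7062329-7062398, plus strand, at chr2:15819152-15819221, minus strand, at chr6:155530474-155530543, minus strand and at chr17:9073553-9073622, minus strand. MBL2, the member with the largest spread, is printed beside them from chr14:97103856-97103925, plus strand, and its window holds no such match.
PLG: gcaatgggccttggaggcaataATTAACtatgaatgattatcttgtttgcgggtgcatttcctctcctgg
F2: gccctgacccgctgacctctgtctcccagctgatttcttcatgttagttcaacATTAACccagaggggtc
C8A: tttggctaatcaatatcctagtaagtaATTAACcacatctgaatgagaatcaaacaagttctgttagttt
F11: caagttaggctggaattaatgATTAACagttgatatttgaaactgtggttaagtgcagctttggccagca
MBL2: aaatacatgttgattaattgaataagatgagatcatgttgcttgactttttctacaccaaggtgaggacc

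In the comparison of the low-iron with the control group, which asks what the absence of added iron does, the 37 genes lay close to their control levels. Their median log2 fold change was -0.02, with 18 higher and 19 lower, against a median of 0.08 over all 12584 genes tested. By the thresholds of the study, a difference of 2-fold or more with an unadjusted p under 0.05, limma called 0 of the 37, while it called 0.882% of all genes. At an unadjusted p under 0.05 alone there was 1 of 37 (F8), against 3.68% of all genes. In 3 of 37 the values of the groups did not overlap, F8 above and C9 and C2 below the control libraries, against 8.34% of all genes. The 95% interval of the difference lay within 2-fold in both directions for 35 of 37, and within 1.5-fold for 18. Within 2-fold lay 66.7% of all genes and 79.8% of the 511 genes of at least 100 FPKM. These 511 include 28 of the 37, so the counts over the 37 here and below are not restricted to that level.

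In the comparison of the high-iron with the control group, which asks what extra iron does, the median of the 37 genes was 0.04, against 0.10 over all genes. MBL2, called higher, was the 1 gene past both thresholds (1 of 37, against 1.57% of all genes) and also the 1 past the p threshold (against 5.59%). The groups did not overlap for CFI and F8, which lay above the control libraries, and for F9, which lay below (3 of 37, against 10.9%). The interval lay within 2-fold for 36 of 37, against 63.9% of all genes and 77.3% of the 511 genes of at least 100 FPKM. Within 1.5-fold it lay for 24 of 37. There were 23 genes higher and 14 lower, but this split depends on the scaling: median-of-ratios scaling moved the median of all genes from 0.10 to -0.03 and left 9 of the 37 higher. Read against the median of all genes, 12 of 37 lay above it under both scalings and 26 of 37 after quantile normalization.

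Between the high-iron and the low-iron group, which lie at the ends of the added iron, the median of the 37 genes was 0.06, with 22 higher and 15 lower, against 0.03 over all genes. None of the 37 was called (limma, 0 of 37, against 1.54% of all genes), and C9 was the 1 past an unadjusted p of 0.05 (against 7.15%). The groups did not overlap for 5 of 37, against 13.2% of all genes: CFI, C2, PROS1 and F11 lay higher in high-iron and F7 lower. The interval lay within 2-fold for 35 of 37, against 62.2% of all genes and 77.9% of the 511 genes of at least 100 FPKM. Within 1.5-fold it lay for 20 of 37. Over the 3 groups together, the moderated F test of limma gave 0 of 37 at an unadjusted p under 0.05, against 5.55% of all genes. The smallest values were 0.0700 for F8, 0.111 for C9 and 0.113 for MBL2. After Benjamini-Hochberg adjustment over all genes tested, limma left 0 of the 37 under 0.05 in each of the 3 comparisons, where the counts over all genes were 0, 1 and 0.

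**Figure D2:**
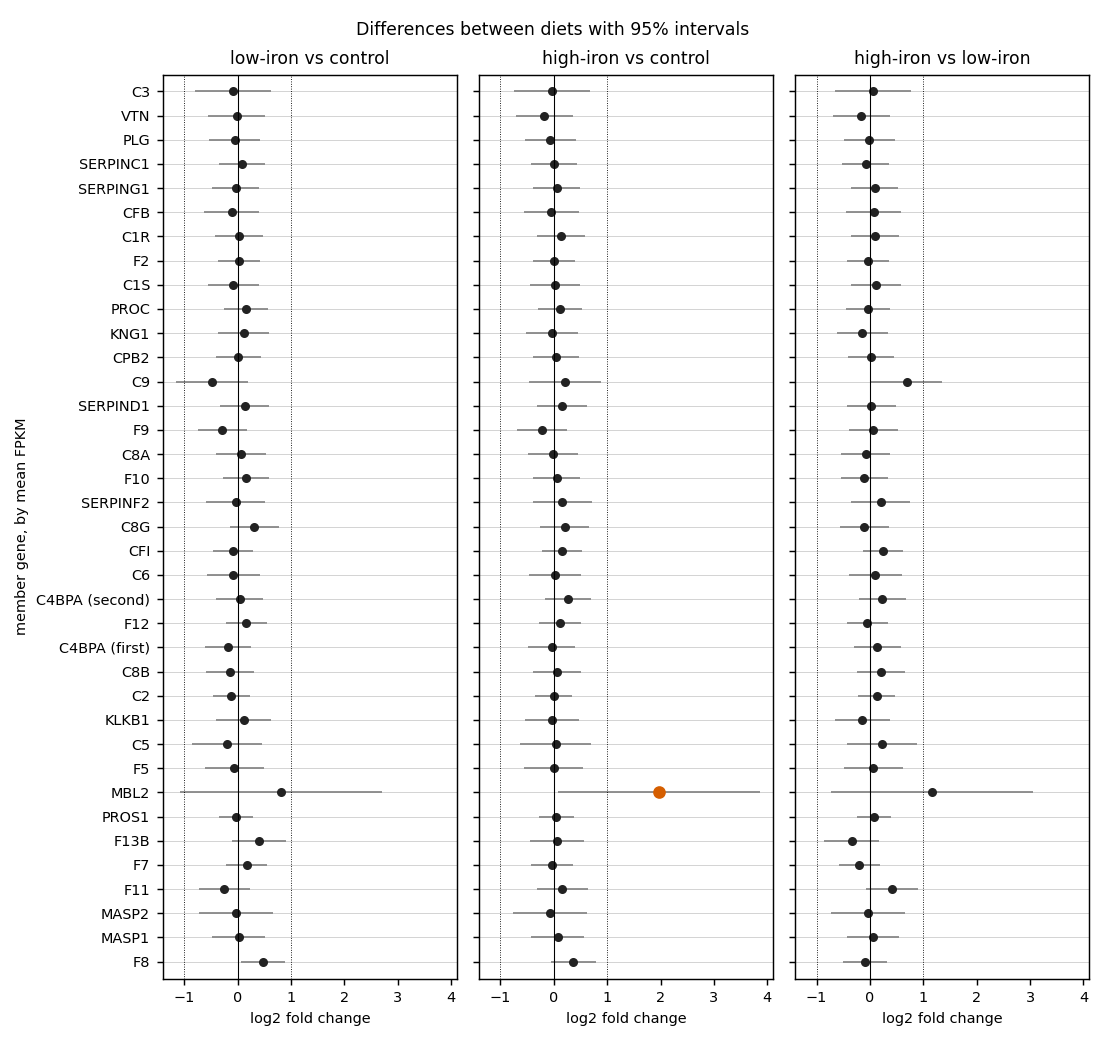
Log2 fold changes of the 37 genes (points) with their 95% intervals (lines) in each of the 3 comparisons; dotted lines mark a 2-fold difference in either direction and the coloured point is called. Apart from MBL2, whose intervals reach from -1.07 to 3.86, the intervals are short, and C9 in low-iron against control and in high-iron against low-iron is the only other gene whose interval crosses a dotted line.

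The spread between libraries was small for most of the genes. The residual SD on the log2 scale, which is the spread within groups, had a median of 0.215 over the 37 and 0.338 over all genes tested, and 32 of 37 lay below the latter. Highly expressed genes vary less, so the genes of at least 100 FPKM were also compared: the median was 0.207 for 28 members and 0.297 for 511 genes. In 32 of 37 the highest library was less than 2 times the lowest, which held for 43.3% of all genes tested; at 100 FPKM or more it held for 25 of 28 members and 59.9% of all genes. These are descriptions without a test.

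Among the vitamin K dependent proteins, prothrombin and protein S stood out by their steadiness. F2, the gene of prothrombin, ranged over 565 to 656 FPKM, and PROS1, the gene of the protein C cofactor protein S, over 59.2 to 65.1 FPKM, with coefficients of variation of 5.14% and 3.45% over the 9 libraries. The residual SD of PROS1, 0.0438, was the lowest of all 12584 genes. PROC, the gene of protein C, which inactivates factors V and VIII, ranged over 458 to 599 FPKM, and F10, the gene of factor X, which converts prothrombin to thrombin, over 214 to 314 FPKM. Log2 fold changes of PROC were 0.15, 0.12 and -0.03 in low-iron against control, high-iron against control and high-iron against low-iron, and those of F10 were 0.16, 0.05 and -0.11.

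F9, the gene of factor IX, which activates factor X together with factor VIII, had 437, 286 and 292 FPKM in low-iron 2, 3 and 7, 412, 420.3 and 383 in control 4, 5 and 6, and 321, 343 and 381 in high-iron 2, 7 and 8. The control libraries lay together and above every high-iron library, while low-iron 2 was the highest of all 9 and the other low-iron libraries were the lowest. The difference was -0.22 ± 0.21 on the log2 scale (SE, 95% interval -0.68 to 0.24, unadjusted p = 0.311, limma) in high-iron against control and -0.29 ± 0.21 in low-iron against control. For F9 over the 3 groups, the F statistic in an exact permutation test gave p = 0.314. F7, the gene of factor VII, the protease that starts clotting with tissue factor, had 42.7, 39.6 and 39.4 FPKM in low-iron 2, 3 and 7, 38.9, 29.2 and 41.6 in control 4, 5 and 6, and 34.1, 37.9 and 34.0 in high-iron 2, 7 and 8. Its high-iron libraries lay below every low-iron library, and control 5 was the lowest of all. The difference was -0.20 ± 0.18 (95% interval -0.59 to 0.19) and the exact permutation p over the 3 groups was 0.393. The smallest p this permutation test can give is 0.00357, from 1680 assignments of the libraries, and it was run for 7 genes.

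Of the cofactors and contact factors, F8 differed most. F8, at chrX:125265330-125350853 on the minus strand, is the gene of factor VIII, the cofactor of factor IX, and it had the lowest level of the 37. It had 4.75, 5.18 and 4.69 FPKM in low-iron 2, 3 and 7, 3.05, 3.76 and 3.73 in control 4, 5 and 6, and 4.91, 3.90 and 4.89 in high-iron 2, 7 and 8. Every low-iron and every high-iron library lay above the control libraries. Means were 4.87 ± 0.270 FPKM in low-iron, 3.51 ± 0.402 in control and 4.57 ± 0.578 in high-iron (SD, n = 3). The log2 difference was 0.47 ± 0.19 in low-iron against control (95% interval 0.05 to 0.88, unadjusted p = 0.0306, Benjamini-Hochberg adjusted p = 0.9998, limma). It was 0.37 ± 0.19 in high-iron against control (95% interval -0.05 to 0.78, unadjusted p = 0.0761, adjusted p = 0.907, limma). With median-of-ratios or quantile scaling the unadjusted p for low-iron against control was 0.0846 or 0.0805, and without low-iron 2, low-iron 3, low-iron 7 or control 4 it was 0.0562, 0.0801, 0.0511 or 0.106, with adjusted p of 0.9995 to 1.0000 (limma). The exact permutation test over the 3 groups gave p = 0.0214 for F8, unadjusted. This test was run for 7 genes. They were called, were among the most changed in either direction of a comparison, or had the smallest F p-values. As the genes were picked by their differences, the p describes F8 and is no independent evidence. F8 spans F8A1 and LOC100517800, both on the other strand, and whether reads were counted by strand is not stated. Of the 37 genes, 10 overlap another annotated gene. The same limit holds for PLG, SERPINC1, SERPIND1, F9, F5, MBL2, MASP1 and MASP2. The C4BPA gene at chr9:67726159-67774369 overlaps a pseudogene on its own strand.

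Markers of endothelial cells, the main source of factor VIII, are given beside F8. STAB1, a scavenger receptor of the liver sinusoid, had 18.3, 20.1 and 20.4 FPKM in low-iron 2, 3 and 7, 12.9, 15.5 and 12.3 in control 4, 5 and 6, and 18.6, 18.4 and 19.3 in high-iron 2, 7 and 8. Picked after its values were seen, it showed the same order as F8, with log2 differences of 0.54 ± 0.16 and 0.47 ± 0.16 against control (unadjusted p = 0.00680 and 0.0139, limma). Of 12 endothelial markers tested, 2 passed an unadjusted p of 0.05 in low-iron against control and 5 in high-iron against control, all higher. Over all genes 3.68% and 5.59% passed. With median-of-ratios scaling 1 and 1 of the 12 passed. The median of the 12 was 0.20 in low-iron and 0.43 in high-iron against control, so the list was higher in high-iron, unlike F8 and STAB1. In low-iron against control 4 of the 12 were lower, LYVE1, ERG, CLEC4G and CDH5 (-0.19, -0.15, -0.13 and -0.0048 on the log2 scale), and CLEC4G was also lower in high-iron against control (-0.04). Their summed level was 271 to 351 FPKM in low-iron, 265 to 304 in control and 309 to 376 in high-iron libraries. In bulk liver, fewer cells of a type and less RNA per cell cannot be told apart, and the part of these markers in the F8 values was not tested.

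F5, the gene of factor V, the cofactor of factor X, ranged over 48.3 to 87.3 FPKM with log2 fold changes of -0.06 in low-iron against control and 0.06 in high-iron against low-iron. F11, the gene of factor XI, had 39.4, 31.1 and 23.1 FPKM in low-iron 2, 3 and 7, 42.4, 37.8 and 29.9 in control 4, 5 and 6, and 40.6, 41.9 and 39.4 in high-iron 2, 7 and 8. The 3 high-iron libraries lay close together, and low-iron 7 was the lowest of all, while low-iron 2 reached the level of high-iron 8. The difference between high-iron and low-iron was 0.41 ± 0.22 (95% interval -0.07 to 0.89, unadjusted p = 0.0858, adjusted p = 0.750, limma). F12, the gene of factor XII, which starts contact activation, ranged over 194 to 267 FPKM. KLKB1, the gene of plasma prekallikrein, ranged over 125 to 208 FPKM, and KNG1, the gene of kininogen, over 364 to 561 FPKM. F13B, the gene of the carrier subunit of factor XIII, had 53.5, 71.5 and 49.8 FPKM in low-iron 2, 3 and 7, 35.9, 57.6 and 40.2 in control 4, 5 and 6, and 44.6, 38.7 and 53.8 in high-iron 2, 7 and 8. All 3 groups overlapped, and the largest difference was 0.40 ± 0.23 in low-iron against control, with -0.34 ± 0.23 in high-iron against low-iron (exact permutation p over the 3 groups = 0.271).

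The inhibitors and the fibrinolysis genes were abundant. SERPINC1, the gene of antithrombin, had 1512, 1386 and 1234 FPKM in low-iron 2, 3 and 7, 1311, 1287 and 1299 in control 4, 5 and 6, and 1325, 1309 and 1256 in high-iron 2, 7 and 8. SERPING1, the gene of C1 inhibitor, had 1246, 1275 and 1079 FPKM in low-iron 2, 3 and 7, 1290.1, 1123 and 1268 in control 4, 5 and 6, and 1341, 1307 and 1171 in high-iron 2, 7 and 8. Their lowest library in both cases was low-iron 7, and the 95% intervals of all 3 comparisons lay within 0.53 of 0 on the log2 scale. SERPIND1, the gene of heparin cofactor II, ranged over 300.4 to 466 FPKM, and SERPINF2, the gene of the plasmin inhibitor, over 206 to 359 FPKM. PLG, the gene of plasminogen, had 1331, 1656 and 1288 FPKM in low-iron 2, 3 and 7, 1630.5, 1422 and 1367 in control 4, 5 and 6, and 1575, 1319 and 1325 in high-iron 2, 7 and 8. VTN, the gene of vitronectin, an adhesion protein that stabilises plasminogen activator inhibitor, had 3144, 2246 and 2276 FPKM in low-iron 2, 3 and 7, 2276, 2528 and 2907 in control 4, 5 and 6, and 2176, 2092 and 2522 in high-iron 2, 7 and 8. The highest library of VTN was low-iron 2 and the 3 groups overlapped; the difference between high-iron and control was -0.18 ± 0.24 (95% interval -0.72 to 0.36, exact permutation p over the 3 groups = 0.493). CPB2, the gene of the carboxypeptidase that protects fibrin from lysis, ranged over 373 to 523 FPKM.

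MBL2 carried the largest differences of the 37 genes and by far the largest spread. MBL2, at chr14:97103926-97107635 on the plus strand, is the gene of a mannose-binding lectin, a plasma protein that recognises sugars on microbes and starts the lectin pathway. It had 13.6, 112 and 30.9 FPKM in low-iron 2, 3 and 7, 13.1, 36.4 and 18.0 in control 4, 5 and 6, and 194, 121 and 22.2 in high-iron 2, 7 and 8. High-iron 2 and 7 and low-iron 3 were above 100 FPKM and the remaining libraries at 36.4 FPKM or below, so libraries of a low level occurred in every group and high-iron 8 lay below control 5. Means were 52.0 ± 52.3 FPKM in low-iron, 22.5 ± 12.3 in control and 113 ± 86.4 in high-iron (SD, n = 3). The log2 difference between high-iron and control was 1.97 ± 0.85 (95% interval 0.09 to 3.86, unadjusted p = 0.0420, Benjamini-Hochberg adjusted p = 0.892, limma), past the fold and p thresholds but with overlapping groups. The exact permutation test over the 3 groups gave p = 0.318 for MBL2. The call was lost without high-iron 2 (log2 difference 1.34), without high-iron 7 (1.68) and without control 4 (1.65), control 6 (1.88) or low-iron 7 (1.97). Low-iron against control differed by 0.82 ± 0.85 and high-iron against low-iron by 1.16 ± 0.85; the latter was called without low-iron 3 (1.97) or without high-iron 8 (2.09). The highest library was 14.9 times the lowest. A lncRNA on the other strand, LOC106508097, overlaps MBL2, and reads of the pair cannot be told apart without strand.

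The proteases of the lectin and classical pathways did not share the spread of MBL2. MASP1 and MASP2, the proteases carried by mannose-binding lectin, ranged over 12.9 to 22.4 FPKM and 13.9 to 33.5 FPKM. Log2 fold changes of MASP1 were 0.02, 0.08 and 0.06 in low-iron against control, high-iron against control and high-iron against low-iron. Those of MASP2 were -0.03, -0.07 and -0.04. C1R and C1S, the proteases of the C1 complex, ranged over 627 to 826 FPKM and 481 to 725 FPKM. C2, the protease that cuts C3 in the classical and lectin pathways, had 157, 174 and 172 FPKM in low-iron 2, 3 and 7, 182, 176 and 189 in control 4, 5 and 6, and 178, 193 and 177 in high-iron 2, 7 and 8. Every low-iron library lay below the control and the high-iron libraries, but the differences were small, -0.12 ± 0.16 against control (95% interval -0.47 to 0.22) and 0.12 ± 0.16 for high-iron against low-iron (95% interval -0.22 to 0.47).

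C3, the central component that all pathways cut, was the most abundant of the 37 genes, with 2330.1, 3734 and 1584 FPKM in low-iron 2, 3 and 7, 2722, 2421 and 2527 in control 4, 5 and 6, and 3089.7, 2399.6 and 2111 in high-iron 2, 7 and 8. The controls lay between 2421 and 2722 FPKM, while low-iron 3 and low-iron 7 were the highest and the lowest of all libraries. Group means were 2549.6 ± 1092, 2556 ± 153 and 2534 ± 503 FPKM in low-iron, control and high-iron (SD, n = 3). CFB, the gene of factor B, the protease of the alternative pathway, had 909, 992 and 645 FPKM in low-iron 2, 3 and 7, 1005, 794 and 919.9 in control 4, 5 and 6, and 1000.3, 888 and 751 in high-iron 2, 7 and 8. C5, the source of the anaphylatoxin C5a and of the first part of the pore, ranged over 101 to 231 FPKM. It too was highest in low-iron 3 and lowest in low-iron 7.

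Among the terminal components, C9 differed most. C9, at chr16:24521318-24575939 on the minus strand, is the gene of the protein that polymerises into the membrane pore. It had 199, 421 and 426 FPKM in low-iron 2, 3 and 7, 452, 473 and 457 in control 4, 5 and 6, and 653, 560.1 and 409.7 in high-iron 2, 7 and 8. The control libraries were nearly equal and above every low-iron library, low-iron 2 stood far below the other libraries, and high-iron 2 and 7 were the highest. Means were 349 ± 129.5 FPKM in low-iron, 461 ± 11.2 in control and 541 ± 123 in high-iron (SD, n = 3). High-iron exceeded low-iron by 0.69 ± 0.30 on the log2 scale (95% interval 0.02 to 1.36, unadjusted p = 0.0451, Benjamini-Hochberg adjusted p = 0.697, limma), with high-iron 8 below both low-iron 3 and low-iron 7. Low-iron against control differed by -0.48 ± 0.30 (unadjusted p = 0.140, adjusted p = 0.9998, limma) and high-iron against control by 0.21 ± 0.30. The exact permutation test over the 3 groups gave p = 0.107 for C9. Without low-iron 2 the difference between high-iron and low-iron was 0.33 on the log2 scale and did not pass the p threshold, nor did it without high-iron 2 (0.54) or high-iron 7 (0.65), or without control 4, 5 or 6, which enter the pooled spread. With no filter, with median-of-ratios scaling or with these 2 groups alone the unadjusted p was 0.0632, 0.0595 or 0.0732, with adjusted p of 0.831, 0.663 and 0.713 (limma).

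C6, which joins C5b at the start of pore assembly, ranged over 197 to 311 FPKM with log2 fold changes of -0.08, 0.02 and 0.10 in the same order of comparisons. C8A, C8B and C8G, the genes of the 3 chains of C8, ranged over 288 to 451 FPKM, 161 to 279 FPKM and 201 to 313 FPKM. C8G was the member of this group with the largest difference besides C9, 0.31 ± 0.21 in low-iron against control (95% interval -0.15 to 0.77). The regulators comprised CFI and both C4BPA genes. CFI, the gene of factor I, which degrades C3b and C4b, had 210.3, 256 and 226 FPKM in low-iron 2, 3 and 7, 239, 256 and 241 in control 4, 5 and 6, and 296, 262 and 259 in high-iron 2, 7 and 8. High-iron libraries lay above the libraries of both other groups, with log2 differences of 0.15 ± 0.17 against control (95% interval -0.22 to 0.52) and 0.24 ± 0.17 against low-iron (95% interval -0.13 to 0.61), and neither passed an unadjusted p of 0.05 (0.391 and 0.181). C4BPA encodes the main chain of C4b-binding protein, a cofactor of factor I. The gene at chr9:67726159-67774369 ranged over 185 to 279.5 FPKM and that at chr9:67815544-67827509 over 199 to 332 FPKM. The second was highest in high-iron 2, and its log2 fold changes were 0.04, 0.27 and 0.23, against -0.18, -0.04 and 0.14 for the first. As they carry 1 symbol they may share reads, which was not tested, so the division between them is uncertain.

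**Figure D3:**
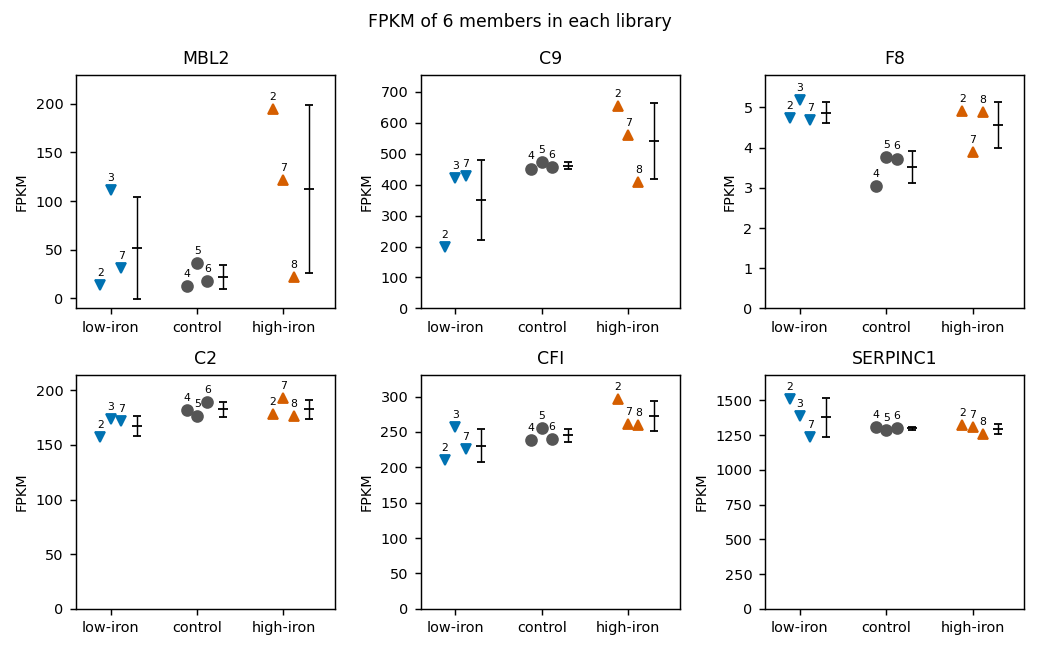
FPKM of 6 genes in each library, with animal numbers above the points and the mean ± SD of each group (n = 3) to their right. MBL2 scatters from 13.1 to 194 FPKM with overlap of all groups, C9 is lowest in low-iron 2 (199 FPKM), F8 is lower in the 3 controls than in the 6 other libraries, and SERPINC1 stays between 1234 and 1512 FPKM.

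The complement genes had 15 of 18 higher in high-iron than in low-iron (median log2 fold change 0.10), and the coagulation genes 7 of 19 (median -0.03). The coagulation count was 10 of 19, with a median of 0.0019 or 0.01, after rescaling to TPM or quantile normalization, so its direction turned with the scaling, and it was 4 of 19 without low-iron 7. The complement count was 15 to 16 under the other scalings but 9 of 18, with a median of 0.0052, without low-iron 7. Against control, the complement genes had 6 of 18 higher in low-iron (median -0.08) and 13 of 18 in high-iron (median 0.04). The first count was 12 of 18 without low-iron 7, and the second 5 of 18 with median-of-ratios scaling. The direction of the complement genes as a group rested on low-iron 7 in both comparisons with the low-iron group. The coagulation genes had 12 of 19 higher in low-iron (median 0.08) and 10 of 19 in high-iron (median 0.04) against control, and 9 and 4 of 19 with median-of-ratios scaling.

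Ratios between genes within a library do not depend on the scaling of that library, and 8 pairs from these systems were compared. F7 and F10, neighbours 3091 bp apart on chromosome 11, kept the most even ratio, 0.121 to 0.147, and the SD of its log2 value over the 9 libraries was 0.0865, against 0.173 for F7 and 0.181 for F10 alone. The ratio of C1R to C1S was 1.10 to 1.43, with the highest value in low-iron 7. C8A to C8B ranged over 1.10 to 2.07, with the lowest value in high-iron 2, and C8A to C8G over 0.964 to 1.72. CFB to C2, genes 34 bp apart on chromosome 7 and on the same strand, ranged over 3.75 to 5.79. PROC to PROS1 ranged over 7.07 to 9.66, MASP1 to MASP2 over 0.638 to 1.44 and KLKB1 to F11 over 2.99 to 7.46. For C1R to C1S the SD of the log2 ratio, 0.125, was also below those of both genes alone (0.161 and 0.187). For all pairs other than F7 to F10 and C1R to C1S it was above those of both genes, from 0.149 (PROC to PROS1) to 0.438 (MASP1 to MASP2). Exact permutation tests over the 3 groups gave p from 0.186 (KLKB1 to F11) to 0.932 (CFB to C2), so no difference of a ratio between groups passed 0.05.

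Other genes of the same systems were taken from a list of names, which was drawn up with earlier results of these data known. Of 28 other complement genes tested, 8 passed an unadjusted p of 0.05 in high-iron against control, all higher, against 5.59% of all genes. Of the 28, 0 were called, against 1.57% of all genes. Their median log2 fold change was 0.19, against 0.10 over all genes, with 19 of 28 higher. These 8 were C1QA and C1QB, chains of C1q; CFP, properdin; CFD, factor D; CD59, the inhibitor of the membrane pore; C5AR1, a receptor of C5a; VSIG4, the complement receptor of Kupffer cells; and ITGB2, a chain of complement receptors CR3 and CR4. CFP had 13.8, 14.6 and 14.0 FPKM in low-iron 2, 3 and 7, 14.7, 11.6 and 14.1 in control 4, 5 and 6, and 21.6, 19.1 and 23.9 in high-iron 2, 7 and 8. Each high-iron library lay above the other 6, and the difference from control was 0.68 ± 0.17 on the log2 scale (unadjusted p = 0.00214, Benjamini-Hochberg adjusted p = 0.885, limma). CD59 had the largest change, 0.87 ± 0.31, and passed the 2-fold threshold without control 6 (1.03) or high-iron 2 (1.10). With median-of-ratios scaling 5 of the 28 passed as higher. In high-iron against low-iron 5 of 28 passed, all higher (against 7.15% of all genes), led by FCN1, a ficolin (0.83 ± 0.37). This difference rested on high-iron 7, without which it was 0.41 and did not pass, and the groups overlapped; it also did not pass without low-iron 3, low-iron 7, control 4 or control 6, with 0.69 to 0.83. In low-iron against control 0 of 28 passed the unadjusted p of 0.05, against 3.68% of all genes. The largest difference was that of CR1, a receptor of C3b (-0.54 ± 0.55).

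Of 21 other coagulation and fibrinolysis genes tested, limma called 3 in high-iron against control, F13A1, VWF and SERPINE2, all higher, against 1.57% of all genes. Of the 21, 17 were higher (median 0.27, against 0.10 over all genes). F13A1, the gene of the catalytic subunit of factor XIII, whose carrier is F13B, had 0.775, 1.01 and 0.785 FPKM in low-iron 2, 3 and 7, 0.860, 0.775 and 0.817 in control 4, 5 and 6, and 2.55, 2.48 and 1.92 in high-iron 2, 7 and 8. The lowest high-iron library was above every library of the other groups. The difference was 1.39 ± 0.27 against control (unadjusted p = 0.000359, Benjamini-Hochberg adjusted p = 0.565, limma) and 1.34 ± 0.27 against low-iron, where it was also called; with a pseudocount of 1 the first was 0.86 and no longer a call. F13B, its partner, differed by 0.05 ± 0.23 in high-iron against control. VWF, the gene of von Willebrand factor, the carrier of factor VIII, had 2.31, 5.72 and 1.35 FPKM in low-iron 2, 3 and 7, 1.96, 0.689 and 2.06 in control 4, 5 and 6, and 6.76, 3.55 and 4.50 in high-iron 2, 7 and 8. Every high-iron library lay above the controls, and low-iron 3 lay among the high-iron libraries. The difference from control was 1.68 ± 0.52 (unadjusted p = 0.00895, adjusted p = 0.885, limma). SERPINE2, the gene of protease nexin-1, differed by 1.04 ± 0.38 from control, a call that was lost without control 6 (0.66), high-iron 2 (1.00) or high-iron 7 (0.94). In high-iron against low-iron 2 of 21 passed the p threshold as higher and 1 as lower, against 7.15% of all genes. The lower was HGFAC, a liver protease related to factor XII (-0.58 ± 0.21, and -0.42 or -0.43 without low-iron 2 or high-iron 8, where it did not pass). In low-iron against control 1 of 21 passed (ANXA2, higher), against 3.68% of all genes, and PLAUR, the urokinase receptor, had the largest difference (0.97 ± 0.48).

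Markers of liver cell types are given beside these lists. In high-iron against control 5.59% of all genes passed an unadjusted p of 0.05, and their median was 0.10. Of 12 Kupffer cell and macrophage markers, 6 passed in that comparison, all higher (median 0.48). Their summed level was 1235 to 1403 FPKM in low-iron, 1092 to 1387 in control and 1375 to 1657 in high-iron libraries. The list shares C1QA, C1QB, C1QC and VSIG4 with the other complement genes, and of these C1QA, C1QB and VSIG4 passed that p and are counted in both lists. VWF, which also passed, stands in both the endothelial and the coagulation list. The counts of these lists are therefore not independent of each other. The 12 endothelial markers had a median of 0.43 in that comparison, with 5 higher and 0 lower at that p. The 13 hepatocyte marker genes had a median of -0.10, with 0 higher and 2 lower at that p: CPS1, the entry enzyme of the urea cycle (-0.88 ± 0.24), and TAT, tyrosine aminotransferase (-0.91 ± 0.37). The summed hepatocyte level was 68783 to 85274 FPKM in low-iron, 70701 to 96682 in control and 67046 to 85564 in high-iron. Of 11 stellate cell and fibroblast markers 3 passed in that comparison, all higher, with sums of 143 to 338, 139 to 223 and 229 to 338 FPKM in low-iron, control and high-iron. Of 10 T and NK cell genes tested 3 passed, all higher, with sums of 27.6 to 33.0, 29.0 to 38.5 and 42.6 to 64.1 FPKM. The part of these markers in the results was not tested.

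**Figure D4:**
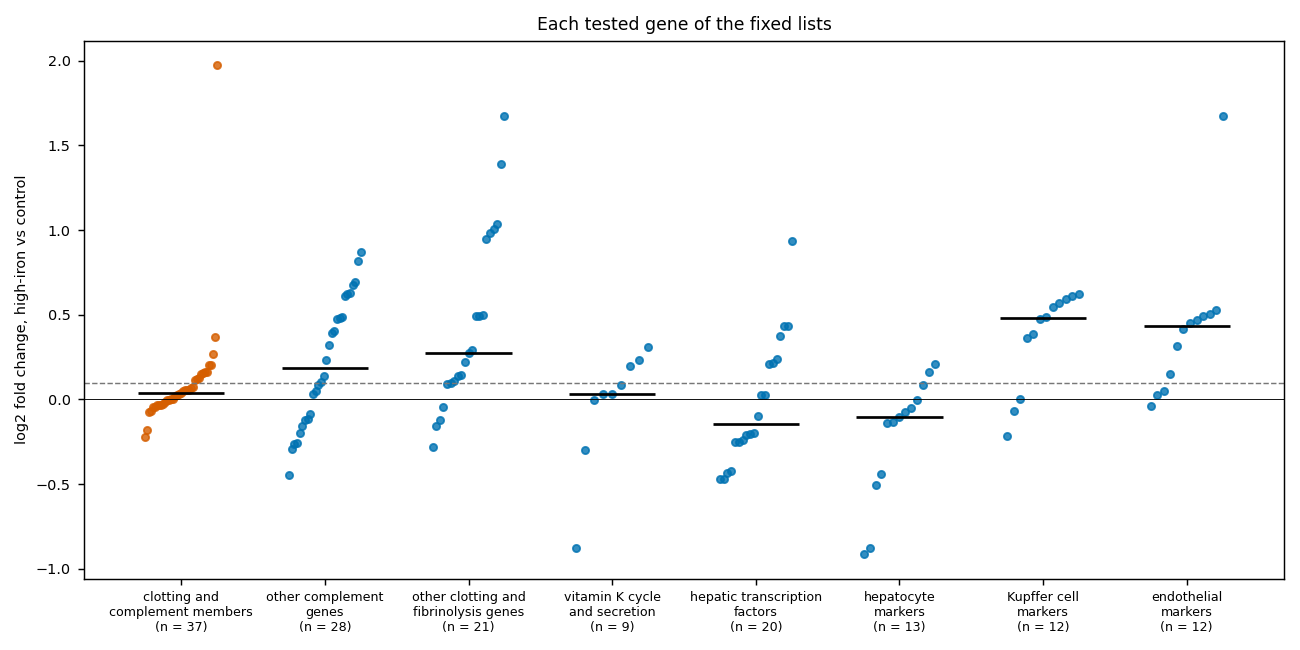
Log2 fold change in high-iron against control of every tested gene (points) of the clotting and complement members and of 7 other lists of genes, with the median of each list (bar) and the median of all genes tested (dashed line, 0.10). The 37 members lie within 0.37 of 0 except for MBL2 (1.97), while the other complement genes, the other clotting genes and the Kupffer cell and endothelial markers have medians between 0.19 and 0.48.

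Genes that act on the making of these proteins were compared in the same way. The list of the vitamin K cycle and of clotting factor secretion held 9 genes, among them GGCX, the carboxylase, and VKORC1, the reductase. Of these 9, limma gave 0 at an unadjusted p under 0.05 in each of the 3 comparisons. Over all genes it gave 3.68% in low-iron against control, 5.59% in high-iron against control and 7.15% in high-iron against low-iron. NQO1, a quinone reductase, had the largest difference, -0.88 ± 0.45 in high-iron against control (unadjusted p = 0.0754, adjusted p = 0.903, limma), and TPST2, a sulfotransferase, that in low-iron against control (0.32 ± 0.37). Of 20 hepatic transcription factors, 3 passed the unadjusted p in high-iron against low-iron, all lower, against 7.15% of all genes. They were HNF4A (-0.53 ± 0.23), FOXA3 (-0.53 ± 0.22) and CEBPB (-0.67 ± 0.29). HNF4A had 63.5, 96.3 and 102 FPKM in low-iron 2, 3 and 7, 56.7, 92.3 and 67.3 in control 4, 5 and 6, and 58.7, 55.8 and 63.4 in high-iron 2, 7 and 8. Its high-iron libraries lay just below the lowest low-iron library and overlapped the controls. In high-iron against low-iron 0 of 20 factors passed without high-iron 2, and 1 after rescaling to TPM or without low-iron 7. In high-iron against control NR2F2 alone passed, higher (0.44 ± 0.19), which is 1 of 20, against 5.59% of all genes. It did not pass with median-of-ratios or quantile scaling (0.31 or 0.35), where 1 factor passed as lower, with the 2 groups alone, or without low-iron 2 or 7, control 4 or 5, or any 1 high-iron library (0.28 to 0.49). In low-iron against control 0 of 20 passed, against 3.68% of all genes.

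The acute phase and interleukin 6 list, which covers the liver response to inflammation, held 23 genes tested. SOCS3, the feedback inhibitor of interleukin 6 signalling, passed an unadjusted p of 0.05 in high-iron against control (-0.99 ± 0.40, Benjamini-Hochberg adjusted p = 0.892, limma). It was the 1 of 23 that did, against 5.59% of all genes. For low-iron against control and high-iron against low-iron limma gave 0 of 23, against 3.68% and 7.15% of all genes. ITIH4, an acute phase inhibitor chain, had the largest differences in low-iron against control (-0.75 ± 0.82) and in high-iron against low-iron (0.89 ± 0.82). It had 412, 1601 and 300.3 FPKM in low-iron 2, 3 and 7, 1468, 426 and 1504 in control 4, 5 and 6, and 1696, 2309 and 319 in high-iron 2, 7 and 8. Libraries of a high and of a low level occurred in every group. SAA3, a serum amyloid A gene, had the largest difference in high-iron against control (1.12 ± 0.64), with 218 FPKM in high-iron 7 against 22.6 to 84.9 FPKM in the other libraries.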

How the data were processed

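Liver RNA of 9 pigs was sequenced from poly(A)-selected libraries, 3 per diet. The submitters' processing notes name HISAT2, StringTie and Sscrofa11.1, and the authors deposited FPKM values per gene and library in 1 table. Gene numbers were read as serial numbers in NCBI annotation release 106 (RefSeq), since each of the 20660 numbers then names a protein-coding gene, but 15031 do after a shift by 1. The 5258 new genes carry no name.

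FPKM plus 0.1 was taken on the log2 scale, which understates fold changes of low genes, and 1 model of the 3 groups was fitted (limma 3.58.1, moderated with a trend, R 4.3.3, 6 residual degrees of freedom). Exact permutation tests, two-sided by construction, and motif matches used Python 3.11.15 with numpy 2.4.6, pandas 2.3.3 and scipy 1.17.1. The fit and the permutation test were tested on simulated data. The members and lists were chosen with earlier results of these data known.

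Values per library are given for members called, most changed, most abundant (6) or with the smallest F p-value (3), and for others whose groups did not overlap, which were picked after their values were seen. From other lists, called genes and the largest changes are named, and further genes past an unadjusted p of 0.05 were picked after seeing them. Alternatives were pseudocounts of 1 and 0.01, no filter or a mean of at least 1 FPKM, rescaling to TPM, median-of-ratios and quantile scaling, array weights, the animal number as a block, the 2 groups alone and leaving out each library. A result for a gene of the transcription factor list is not reported here.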

Additional observations from a re-analysis of the deposited data

How the results depend on the processing

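Across 19 alternative fits, the counts of the 37 genes that were higher and the sign of their medians moved with the scaling and with the library left out. With median-of-ratios scaling 11 genes were higher in low-iron and 9 in high-iron than in control, with a median of -0.0894 in the latter. MBL2, the 1 call in high-iron against control, was lost, leaving 0, with no filter, median-of-ratios scaling, quantile normalization and array quality weights. Array weights gave 1 gene by the F test. On leaving out 1 library at a time, 16 to 28 genes were higher in low-iron than in control, with 28 reached without low-iron 7, and 19 to 30 in high-iron than in control. In high-iron against low-iron, 13 to 28 were higher and the median ran from -0.065 to 0.13, with the lowest values without low-iron 7. Calls ran from 0 to 1 in high-iron against control and in high-iron against low-iron, and genes by the F test from 0 to 2. The F8 difference between high-iron and low-iron ran from -0.15 to 0.0084, changing sign without high-iron 7. Over all genes, calls in high-iron against control were 197, against 74 with a pseudocount of 1, 504 with no filter and 134 with a mean of at least 1 FPKM. In low-iron against control they were 111, against 34, 331 and 77, and in high-iron against low-iron 194, against 67, 458 and 137. The filters change the number of low genes tested by construction. Other causes were not tested.

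With the animal number as a replicate block, 17, 26 and 24 genes were higher in the 3 comparisons, medians were -0.0075, 0.05 and 0.07, and the calls of the 37 genes were 0, 1 and 0. Over 12584 genes the deviations of livers of the same number had correlations of 0.0183 and 0.0213, and limma estimated 0.201 within numbers. The labels do not say what a number shares, so it is taken as a number alone. With 3 livers a group, the intervals given with the differences set what could be detected.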
